A study of Homo sapiens with 9 samples.

Results

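A set of 103 genes had higher RNA levels in both groups of OVCAR5 ovarian cancer cells labelled as METTL3 knockdown than in the libraries labelled NC. A gene entered the set if its mean over the 9 libraries was at least 1 CPM (counts scaled to the library total), if its mean CPM in the libraries labelled SM2 and in those labelled SM4 was each at least 2 times that of the libraries labelled NC, and if each SM2 and SM4 library lay above each NC library. Of 60649 genes in the count table, 14432 reached the minimum level, and the 103 members are 0.714% of these. Because levels in these libraries chose the members, their ratios to NC are given as a description and were not tested.

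RNA sequencing of polyadenylated RNA was available for 3 libraries of each group. All groups came from OVCAR5, an established human epithelial ovarian cancer cell line, which was transduced with lentivirus and selected with puromycin to give stable lines. NC is described as parental control in the series design, while the methods of the study describe control hairpins, and SM2 and SM4 are described as METTL3 knockdown lines. The labels do not state which of the METTL3 hairpins was used for SM2 or for SM4, and a source field gives other OVCAR names to the SM4 libraries although their cell line field reads OVCAR5. No label states that the 3 libraries of a group came from separate cultures, so p-values measure only the spread between these samples, which may be technical.

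METTL3 encodes the catalytic subunit of the complex that writes N6-methyladenosine (m6A) on RNA, a mark read by proteins that act on splicing, translation and decay of the transcript. The members come from several classes of gene. Many encode surface and junction proteins, which in epithelia fix cells to each other and to the underlying matrix, or cytoskeletal proteins that link the plasma membrane to actin and intermediate filaments. Others encode channels, synaptic vesicle proteins and transcription factors that are best known from nerve, muscle, ciliated cells or squamous epithelium.

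METTL3 itself went against the knockdown labels. Its level was 36.0, 34.0 and 36.7 CPM in the libraries labelled NC, 36.8, 39.8 and 40.3 CPM in those labelled SM2, and 61.2, 57.1 and 63.1 CPM in those labelled SM4. Every SM2 and SM4 library was above every NC library, and SM4 was the highest. The knockdown is therefore not seen in the libraries that carry its labels, and which libraries served as control is uncertain. The paper lists METTL3, FOXJ1, VGLL1 and KRT13 as lower in both hairpin lines than in the control hairpin. Here these genes were lowest in NC and highest in SM4. By edgeR, SM4 exceeded SM2 by a log2 fold change of 1.20 for FOXJ1, 0.56 for VGLL1 and 0.33 for KRT13. Rounded alike, the paper lists drops of these same sizes for its hairpin line shMETTL3-2 against the control hairpin. SM4 may therefore be the control of the paper and NC and SM2 its knockdown lines. In that case the members are genes lower in the NC line than in the control and the other knockdown line. This was not tested. NC, SM2 and SM4 stand throughout for the libraries labelled so, higher and lower are relative to the named libraries, and no ratio to NC is to be read as the direction of a METTL3 knockdown. Libraries held 44103272 to 63693728 counts, so 1 CPM stood for 44.1 to 63.7 counts. SM2 replicate 3 stood apart from its group, with a chi-square of 16.7 and 13.8 per degree of freedom against the other SM2 libraries, where pairs within the other groups and the remaining SM2 pair gave 4.21 to 6.04, and 97 of the 103 members met the rule without it. The epithelial markers EPCAM, KRT8, KRT18 and others were all above 1 CPM, with 0 of 10 below it, while 9 of 10 fibroblast, 8 of 10 endothelial and 8 of 10 leukocyte markers lay below 1 CPM. Of the mesothelial markers 5 of 10 lay below 1 CPM, as did 5 of 10 markers of an embryonic kidney packaging line.

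The members were genes of low level in the libraries labelled NC. Their median was 0.955 CPM in NC, against 26.3 CPM for all genes that reached the minimum, and 54 members lay below 1 CPM in NC. The rule used the NC level, so a low value there follows in part from the choice of members. The median ratio to NC was 2.77 in SM2 and 2.79 in SM4, where all genes at the minimum had medians of 1.00 and 1.00. The smaller of the 2 ratios was at least 4 in 16 members, between 3 and 4 in 13 and between 2 and 3 in 74. The summed level of the members was 246 to 261 CPM in NC, 734 to 749 CPM in SM2 and 721 to 740 CPM in SM4. In bulk RNA, fewer cells with a transcript and less of it per cell cannot be told apart.

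**Figure D1:**
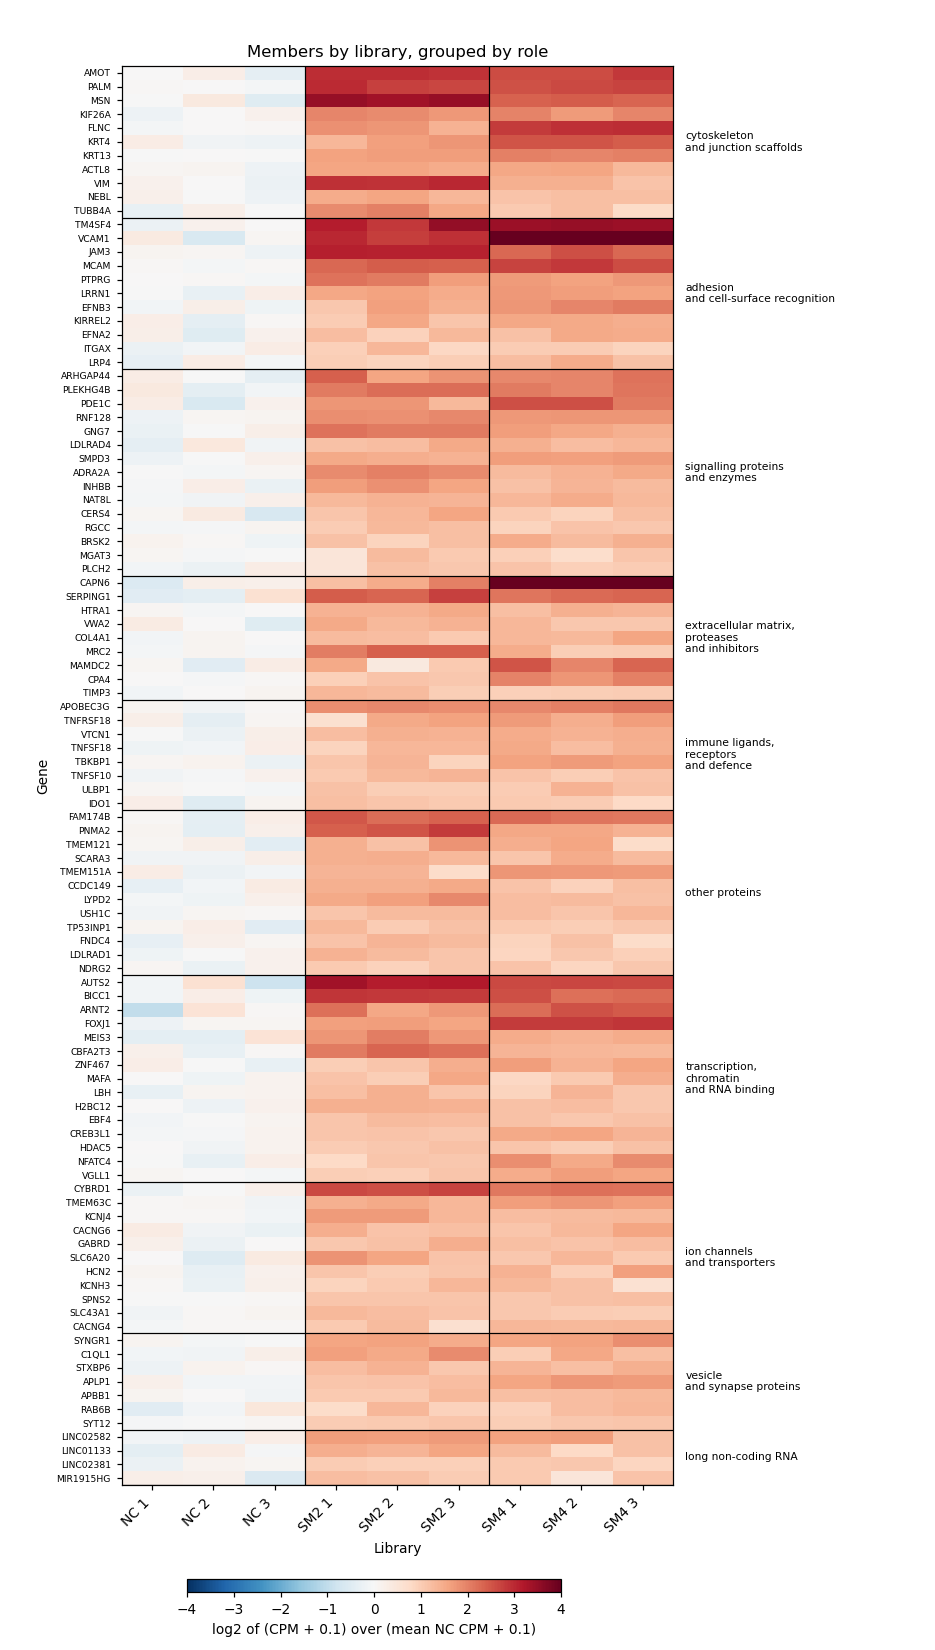
Level of the 103 members (rows, grouped by role) in the 9 libraries (columns), as log2 of (CPM + 0.1) over (mean NC CPM + 0.1), with the colour scale ending at 4 on either side. The SM2 and SM4 columns are red throughout, as the choice of members requires, and the SM2 and SM4 blocks differ for VIM, MSN, VCAM1 and CAPN6, among others.

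The promoters of 4 members are shown because these genes had among the largest ratios and carry different start-site sequences; they were picked after their values were seen. Each is the 250 bases before the RefSeq start in GRCh38.p14, read 5′ to 3′ on the strand of the gene. Capitals mark a TATA box (TATAAA), a GC box (GGGCGG) or an NF-kB motif on either strand, and where a TATAAA on one strand overlaps one on the other, both are in capitals.
TM4SF4, chr3:149474447-149474696, plus strand: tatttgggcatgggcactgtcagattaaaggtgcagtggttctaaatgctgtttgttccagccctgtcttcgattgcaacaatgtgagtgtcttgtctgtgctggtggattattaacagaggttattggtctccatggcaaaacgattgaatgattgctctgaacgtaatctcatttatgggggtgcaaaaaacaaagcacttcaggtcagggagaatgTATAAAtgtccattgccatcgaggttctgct
VCAM1, chr1:100719492-100719741, plus strand: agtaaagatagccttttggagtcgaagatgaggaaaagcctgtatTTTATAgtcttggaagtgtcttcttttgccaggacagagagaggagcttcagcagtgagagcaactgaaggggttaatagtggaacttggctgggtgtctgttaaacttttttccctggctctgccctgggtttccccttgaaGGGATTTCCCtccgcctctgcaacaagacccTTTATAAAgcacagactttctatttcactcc
AMOT, chrX:112840832-112841081, minus strand: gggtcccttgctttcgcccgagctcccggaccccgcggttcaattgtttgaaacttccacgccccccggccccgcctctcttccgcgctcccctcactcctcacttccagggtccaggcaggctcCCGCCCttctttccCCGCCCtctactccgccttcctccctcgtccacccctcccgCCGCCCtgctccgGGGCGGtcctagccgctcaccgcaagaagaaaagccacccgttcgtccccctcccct
MSN, chrX:65588127-65588376, plus strand: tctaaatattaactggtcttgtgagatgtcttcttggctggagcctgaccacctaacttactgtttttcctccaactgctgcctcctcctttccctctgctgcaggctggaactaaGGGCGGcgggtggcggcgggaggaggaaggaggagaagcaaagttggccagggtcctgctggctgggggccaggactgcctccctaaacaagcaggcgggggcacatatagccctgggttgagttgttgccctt

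In TM4SF4 the TATA box lay 31 to 26 bases before the start, and in VCAM1 one lay 29 to 24 bases before it with an NF-kB motif at 62 to 53. AMOT held 4 GC boxes and MSN held 1. Over the windows of 300 bases from 250 before to 50 after the start, 5.53% of the 10392 promoters of genes at the minimum level held TATAAA, 70.6% held GGGCGG and 6.85% held the NF-kB motif. A RefSeq promoter was matched for 72 of the 103 members, too few to compare the members with other genes, so no share is given for them.

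Among the 11 members with roles in adhesion and cell-surface recognition, the largest smaller ratio belonged to TM4SF4, a tetraspanin-like surface protein of liver and intestine. TM4SF4 (chromosome 3, 149474697 to 149503394) measured 0.363, 0.509 and 0.444 CPM in NC, 4.67, 3.72 and 6.00 CPM in SM2, and 5.67, 5.89 and 5.62 CPM in SM4. Its ratios to NC were 10.9 and 13, and the SM2 and SM4 libraries overlapped.

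VCAM1, an immunoglobulin-type receptor for leukocyte integrins, measured 0.703, 0.309 and 0.564 CPM in NC, 4.96, 4.16 and 4.62 CPM in SM2, and 9.84, 9.77 and 11.5 CPM in SM4. Every SM4 library lay above every SM2 library, with ratios to NC of 8.71 in SM2 and 19.7 in SM4. JAM3, a junctional adhesion molecule of tight junctions and endothelium, had the opposite order, with 0.748, 0.727 and 0.581 CPM in NC, 6.72, 6.49 and 6.48 CPM in SM2, and 3.72, 4.63 and 3.74 CPM in SM4. MCAM, the melanoma cell adhesion molecule, was the most abundant of the adhesion members in CPM per kb of transcript (4.34 over SM2 and SM4), with 2.43, 2.22 and 2.46 CPM in NC, 12.1, 13.1 and 12.9 CPM in SM2, and 16.1, 17.4 and 15 CPM in SM4. For both genes all SM2 and SM4 libraries were separate from each other. The other adhesion members were PTPRG, LRRN1, EFNB3, KIRREL2, EFNA2, ITGAX and LRP4, of which EFNB3 and EFNA2 encode ephrins, membrane-bound ligands of Eph receptors.

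Membrane-linked cytoskeletal genes made up a second group of 11. AMOT, which encodes angiomotin, a junction scaffold that binds the Hippo pathway effector YAP, measured 0.363, 0.455 and 0.256 CPM in NC, 3.43, 3.43 and 3.31 CPM in SM2, and 2.71, 2.72 and 3.15 CPM in SM4. MSN, which encodes moesin, a linker of actin to the plasma membrane, measured 2.09, 2.80 and 1.5 CPM in NC, 24.8, 22.8 and 24.7 CPM in SM2, and 11.4, 11.8 and 11.1 CPM in SM4. Both genes were lower in all SM4 libraries than in any SM2 library, and the gap was wide for MSN alone. PALM, which encodes paralemmin, a lipid-anchored protein that shapes the membrane, measured 0.907, 0.873 and 0.820 CPM in NC, 7.48, 6.32 and 6.04 CPM in SM2, and 5.5, 5.95 and 6.17 CPM in SM4.

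VIM, which encodes vimentin, the intermediate filament of mesenchymal cells, measured 6.26, 5.67 and 4.72 CPM in NC, 42.3, 41.6 and 45.3 CPM in SM2, and 14.9, 15.2 and 12.4 CPM in SM4. FLNC, which encodes the muscle filamin that cross-links actin, measured 2.27, 2.4 and 2.5 CPM in NC, 8.82, 8.36 and 6.37 CPM in SM2, and 17.2, 18.6 and 19.4 CPM in SM4. VIM was therefore highest in SM2 and FLNC in SM4, with no overlap between those groups. Of the 16 keratin genes at the minimum level, 2 were members, KRT4 and KRT13, which are keratins of non-keratinised squamous epithelium, and KRT13 measured 5.24, 5.35 and 5.18 CPM in NC, 16.3, 17.1 and 17.1 CPM in SM2, and 21.4, 20.8 and 21.5 CPM in SM4. Keratins share sequence with each other and with pseudogenes, as do H2BC12, TUBB4A and APOBEC3G with their relatives, so counting could split or move their reads.

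**Figure D2:**
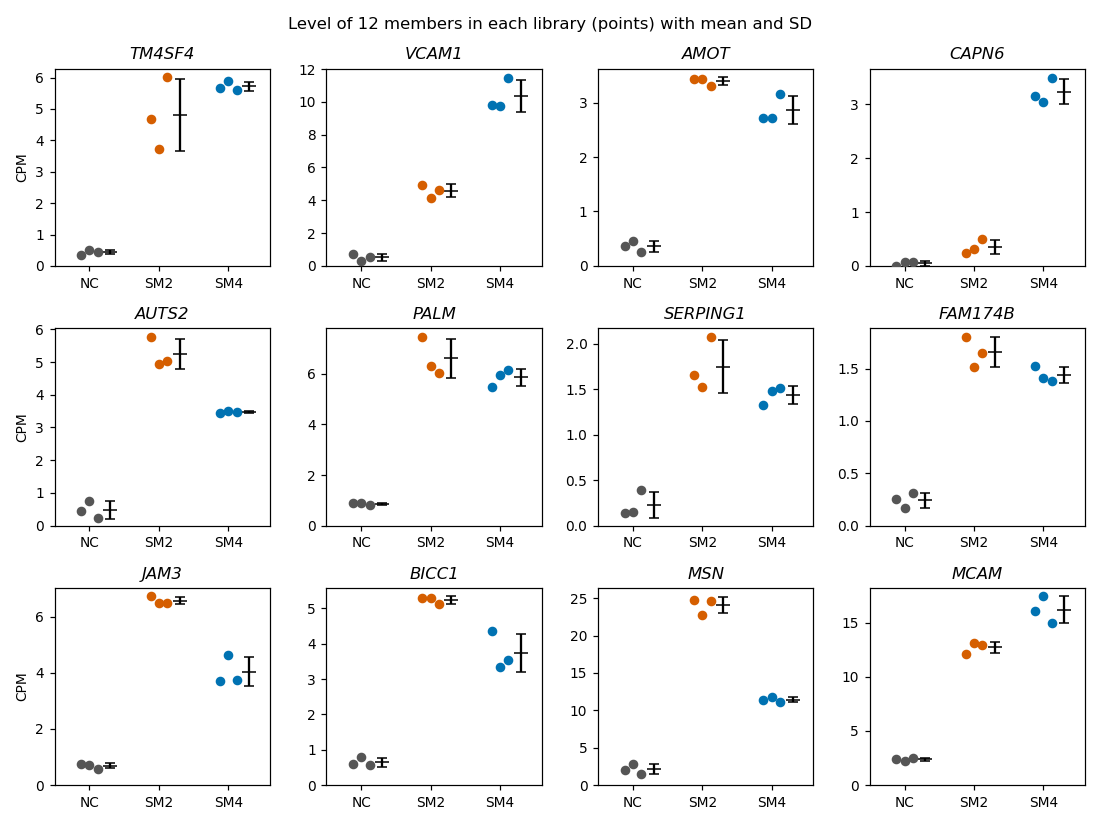
CPM (linear axes from 0) of the 12 members with the largest smaller ratio to NC, with 1 point per library in NC, SM2 and SM4 and the mean with SD beside the points. No SM2 or SM4 point reaches the NC points in any panel; VCAM1, CAPN6 and MCAM are higher in SM4, and JAM3, BICC1, AUTS2 and MSN are higher in SM2.

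The 9 members with roles in matrix, proteolysis and its inhibition held the largest ratio of the set. CAPN6, a calpain-family protein of placenta that lacks protease activity, had 0, 4 and 4 counts in NC, 11, 15 and 26 counts in SM2, and 190, 194 and 177 counts in SM4. Its ratio to NC was 7.41 in SM2 and 68.7 in SM4, both resting on 8 counts over the NC group, and its level in SM2 stayed below 1 CPM. SERPING1, the inhibitor of complement C1 proteases, measured 0.136, 0.145 and 0.393 CPM in NC, 1.65, 1.52 and 2.07 CPM in SM2, and 1.33, 1.48 and 1.52 CPM in SM4. TIMP3, a matrix-bound inhibitor of metalloproteinases, sat at the 2-fold limit with ratios of 2.33 and 2.01. HTRA1, a secreted serine protease, was among the members with most counts, with 12.8, 11.3 and 12.2 CPM in NC, 31.6, 31.9 and 34.8 CPM in SM2, and 27.7, 32.3 and 31.1 CPM in SM4. COL4A1, CPA4, MRC2, MAMDC2 and VWA2 completed the group, and MAMDC2 had the narrowest gap of any member, since its lowest SM2 library was 1.08 times its highest NC library.

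Channels and transporters gave 11 members. SPNS2, the exporter of sphingosine-1-phosphate, had the highest level of the set in CPM, with 34.5, 34.3 and 35.9 CPM in NC, 75.1, 75.4 and 75.1 CPM in SM2, and 73.5, 78.4 and 80.4 CPM in SM4. The 6 ion-channel members were KCNJ4, CACNG6, GABRD, HCN2, KCNH3 and CACNG4, which are known from neurons or muscle, and their smaller ratios to NC lay between 2.05 and 2.59. In the group of 7 vesicle and synapse proteins, SYT12, a synaptotagmin of secretory vesicles, measured 23.2, 23.7 and 25.2 CPM in NC, 48.2, 50.2 and 51.8 CPM in SM2, and 47.8, 50.4 and 52.0 CPM in SM4. For SYT12 and SPNS2 the SM2 libraries lay within the range of the SM4 libraries.

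Among 15 members that act in transcription, chromatin or RNA binding, AUTS2, a neurodevelopmental regulator, measured 0.431, 0.764 and 0.222 CPM in NC, 5.76, 4.93 and 5.04 CPM in SM2, and 3.46, 3.52 and 3.49 CPM in SM4. BICC1, an RNA-binding protein of renal tubules, measured 0.590, 0.800 and 0.564 CPM in NC, 5.30, 5.28 and 5.11 CPM in SM2, and 4.35, 3.33 and 3.55 CPM in SM4. FOXJ1, the master transcription factor of motile cilia, which marks ciliated cells of the fallopian tube, measured 2.2, 2.71 and 2.70 CPM in NC, 8.06, 8.34 and 7.71 CPM in SM2, and 18.2, 18.2 and 19.2 CPM in SM4. AUTS2 and BICC1 were thus higher in SM2 and FOXJ1 in SM4, each without overlap. VGLL1, a cofactor of TEAD factors, had ratios of 2.04 and 3.01 and was close to the limit.

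The remaining members were 15 signalling proteins and enzymes, 8 immune ligands, receptors and defence proteins, 12 proteins of other roles and 4 long non-coding RNAs. The immune group held TNFSF10, the ligand TRAIL, and TNFSF18, along with ULBP1, IDO1, VTCN1, TBKBP1, TNFRSF18 and APOBEC3G. FAM174B, a membrane protein in the group of other roles, measured 0.249, 0.164 and 0.308 CPM in NC, 1.80, 1.52 and 1.65 CPM in SM2, and 1.53, 1.41 and 1.38 CPM in SM4. By type, 99 members were protein-coding, which is 0.820% of the protein-coding genes at the minimum level, and the long non-coding RNAs were 0.355% of theirs.

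At the edge of the rule, the 6 members with the smallest ratios were PLCH2 (2.00 in SM2, 2.13 in SM4), MGAT3 (2.07, 2.00), TIMP3, VGLL1, IDO1 (2.31, 2.04) and MIR1915HG (2.41, 2.04). Genes just outside it included PLEKHA4 (2.01, 1.98), C1S (2.35, 1.97), ABCG1 (1.96, 2.54), NPDC1 (2.16, 1.94) and SELENOM (2.27, 1.93). In the opposite direction, 4 genes had NC at least 2 times above both groups, with all libraries separated.

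Shared functions were counted with 35 gene lists, 25 of functions and 10 of tissues, read beside the 0.714% of all genes at the minimum level that are members. Of 22 adhesion molecules 3 were members (VCAM1, JAM3 and MCAM), of 80 ion channels 6, of 32 receptor tyrosine kinases and ephrins 2, and of 26 angiomotin and Hippo genes 2 (AMOT and VGLL1). Proteases and inhibitors gave 3 of 86 (CAPN6, SERPING1 and TIMP3), growth factor, chemokine and cytokine genes with their receptors and binding proteins 3 of 107 (INHBB, TNFSF18 and TNFSF10), and cytoskeletal genes 3 of 97 (PALM, KIF26A and TUBB4A). Solute carriers and ABC transporters gave 2 of 241 (SLC6A20 and SLC43A1), and developmental transcription factors 2 of 105 (FOXJ1 and MEIS3). The lists of extracellular matrix (COL4A1), zinc finger (ZNF467), NF-kB target (VCAM1), p53 target (TP53INP1) and epithelial-mesenchymal transition genes (VIM) gave 1 member each. There were 0 members among 44 interferon-response genes, 22 YAP-TEAD targets, 10 cadherins, 15 Wnt targets, 22 hypoxia genes, 21 cholesterol-synthesis genes, 14 imprinted genes, 16 germline genes and 19 immediate-early genes.

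Outside the members, the direction of the calls varied between the lists. The ion-channel list had 26 of the other genes called higher and 6 lower in SM2 against NC, and 23 higher and 7 lower in SM4 against NC, where 12% and 10.3% of all 19674 tested genes were called higher and lower in SM2 and 11% and 10.2% in SM4 (edgeR, adjusted p below 0.05). Among the other 19 adhesion genes, 6 were called higher and 10 lower in SM2, and 7 higher and 6 lower in SM4. Of the other 24 angiomotin and Hippo genes, 5 were called higher and 7 lower in SM2, and 4 higher and 6 lower in SM4. Other lists were called mostly one way. The 44 interferon-response genes had 14 called higher and 1 lower in SM2, and 35 higher and 1 lower in SM4, and the 25 NF-kB targets other than VCAM1 had 1 higher and 10 lower in SM2, and 0 higher and 19 lower in SM4. Of the 21 cholesterol-synthesis genes, 18 were called higher and 0 lower in SM2, and 1 higher and 1 lower in SM4. Both comparisons use the same NC libraries. The list genes all had a mean of at least 1 CPM, while the tested genes include lower ones. No share of called genes at 1 CPM or more is given for these comparisons.

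By the tissue in which each is best known, assigned from general knowledge after the members were seen, 24 of the 103 (23.3%) belong to the nervous system, 8 to mesenchyme, vessel wall or basement membrane, 4 to liver, intestine or kidney epithelium, 3 to leukocytes and 8 to other tissues, and 56 had no assignment. No tissue was assigned in this way to genes outside the members, so these shares have no background beside them. The nervous-system members include APLP1, SYNGR1, SYT12, C1QL1, GABRD and TUBB4A. Of the neuron markers, 1 of the 10 that reached the minimum level was a member (AUTS2), and 22 of the 32 markers lay below 1 CPM. Of the other 9 at the minimum level, 4 were called higher and 0 lower in SM2, and 5 higher and 0 lower in SM4. The summed level of the 32 markers was 69.7 to 74.8 CPM in NC, 96.4 to 99.2 CPM in SM2 and 93.7 to 95.5 CPM in SM4. The 10 leukocyte markers summed to 40.9 to 45.6, 58.9 to 63.8 and 42.0 to 44.7 CPM, and the 10 endothelial markers to 22.9 to 24.9, 22.2 to 23 and 29.9 to 32.9 CPM, in NC, SM2 and SM4. The part of such cells in the levels of the members was not tested. The list of intestine and liver genes held 1 member of 11 (TM4SF4), and there were 0 members among 8 muscle, 10 epithelial, 5 mesothelial, 5 packaging-line, 2 endothelial, 2 leukocyte and 1 fibroblast markers at the minimum level. Lists this small are likely to hold 0 members at a share of 0.714%. Of the ovary and fallopian tube list, FOXJ1 was the member, and of the other 9 genes at the minimum level 7 were called higher and 0 lower in SM2, and 6 higher and 0 lower in SM4.

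Members lay on 22 of the 23 chromosomes counted, with 0 on chromosome 21. Chromosomes 11, 17 and 19 held 31 of them (30.1%), against 18.3% of all genes at the minimum level. They were picked because they held the most members, so an excess follows in part from that choice. By share, chromosomes 10 (1.27%), 14 (1.22%) and 8 (1.18%) were above 17 (1.11%) and 19 (1.10%). The share of genes that were members was highest on chromosome 22 (1.39%, 5 members) and chromosome 11 (1.31%, 11 members). Genes on chromosomes 11, 17 and 19 had a median transcript GC content of 55.6%, against 47.3% elsewhere, so position and base composition moved together. The part of base composition in this was not tested.

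**Figure D3:**
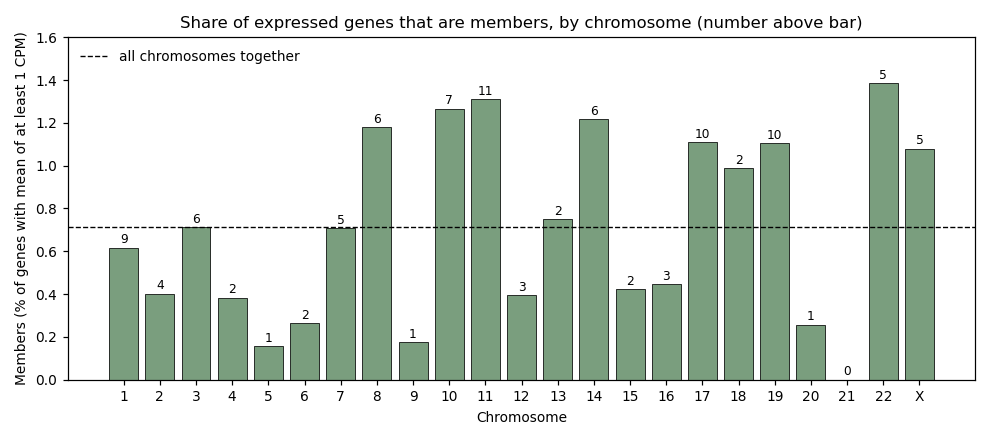
Members as a share of the genes with a mean of at least 1 CPM on each chromosome (bars, %), with the number of members above each bar and the share over all chromosomes as a dashed line at 0.714%. Chromosomes 22 and 11 have the highest shares and chromosome 21 has 0 members.

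Neighbouring members were few. Within 500 kb between start sites there were 8 pairs, which involved 13 members. The closest were KIRREL2, a nephrin-like adhesion protein, and APLP1, a relative of the amyloid precursor protein, whose starts lie 12 kb apart on chromosome 19 with 0 other genes at the minimum level between them. SLC43A1 and SERPING1 lay 81.6 kb apart on chromosome 11, HCN2 and PALM 119 kb apart on chromosome 19, and NEBL and MIR1915HG 204 kb apart on chromosome 10. On chromosome 22, APOBEC3G, SYNGR1 and MGAT3 lay within 380 kb of each other, and GABRD and PLCH2 lay 407 kb apart on chromosome 1. Of the 1151 other genes within 500 kb of a member, 33 (2.87%) were at least 1.5 times NC in both groups, against 1.52% of all genes that were not members, and their median ratios were 1.02 and 1.03. Among the genes nearest to each member, 4 were at 1.5 times NC or more in both groups.

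Overlap with other genes touched 21 members, of which 20 overlapped a gene on the opposite strand that reached 1 CPM. The use of strand in counting is not given in the sources used here, so reads of such a pair cannot be told apart with certainty. VIM overlaps VIM-AS1, which measured 1.28 CPM in NC, 2.74 CPM in SM2 and 0.304 CPM in SM4 as group means. COL4A1 overlaps COL4A2, at 0.892, 1.46 and 1.04 CPM. JAM3 overlaps NCAPD3, whose group means of 160 CPM in NC, 159 CPM in SM2 and 187 CPM in SM4 did not follow those of JAM3. Some partners did have the order of their member over NC, SM2 and SM4. ARHGEF40, which overlaps NDRG2, measured 6.10, 9.71 and 11.5 CPM, and RNF157-AS1, which overlaps FOXJ1, measured 0.257, 0.463 and 1.08 CPM. DPYSL2, which overlaps PNMA2, measured 3.30, 5.97 and 4.43 CPM. The part of overlap in the levels of the members was not tested.

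The transcripts of the members were rich in G and C. Their median GC content was 56.5%, against 48.6% for all annotated genes at the minimum level, and 50 of the 103 lay in the highest of 4 classes of GC with equal numbers of genes. Among 2703 protein-coding genes of the level range of the members (1.15 to 10.98 CPM), the 79 members had a median of 58.0%, against 50.2%. Over all genes the median log2 ratio to NC ran with GC as well, from -0.06 in the lowest class to 0.08 in the highest in SM2 and from -0.04 to 0.08 in SM4, and when this trend was removed 96 genes met the rule. The density of GGACT, a common form of the m6A consensus sequence, was 0.949 per kb of transcript in members and 0.917 in all genes. The part of GC content in the levels was not tested.

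**Figure D4:**
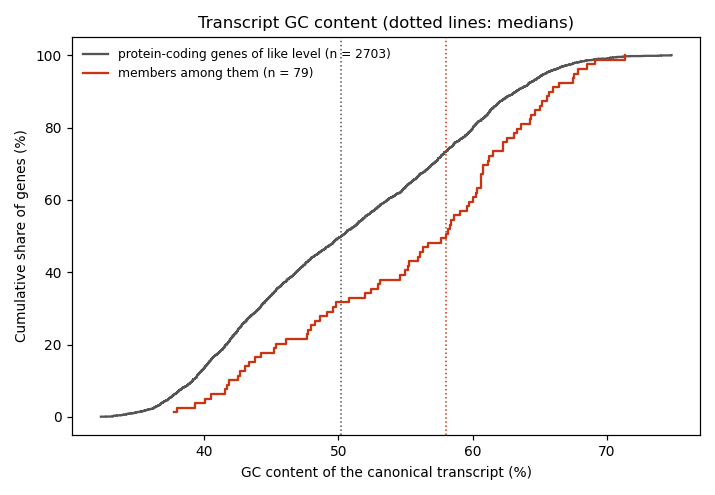
Cumulative share (%) of protein-coding genes of like level (grey) and of the members among them (red) by GC content of the canonical transcript (%), with dotted lines at the medians. The curve of the members lies to the right, with a median of 58.0% against 50.2%.

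SM4 was also compared with SM2. The rule does not set which of them is higher, but it used the levels of the same libraries, so the differences of the members are a description and nothing is read from how many were called. Of the 103 members 29 (28.2%) were called, 16 higher and 13 lower in SM4, where 12.8% of all 19674 tested genes (6.04% higher and 6.76% lower), 16.8% of genes at 1 CPM or more and 10.9% of 4504 genes in the level range of the members were called. Without the SM2 or without the SM4 libraries, 18 members had a mean below 1 CPM over the other 6. Of these, 4 were called (CAPN6, MAMDC2, PDE1C and PNMA2), and each reached the minimum through the group where it was higher. The SM4 libraries all lay above the SM2 libraries in 25 members and all below in 25. The share of all tested genes with such separation is not given here, so nothing is read from these counts either. By role, calls were 3 higher and 1 lower in adhesion, 3 and 3 in the cytoskeleton, 3 and 1 in matrix and proteolysis, and 4 and 3 in transcription. They were 1 and 2 in signalling, 1 and 2 in other roles, 0 and 1 in channels and transporters, and 1 and 0 in vesicle and synapse proteins. The immune group and the long non-coding RNAs each had 0 and 0.

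**Figure D5:**
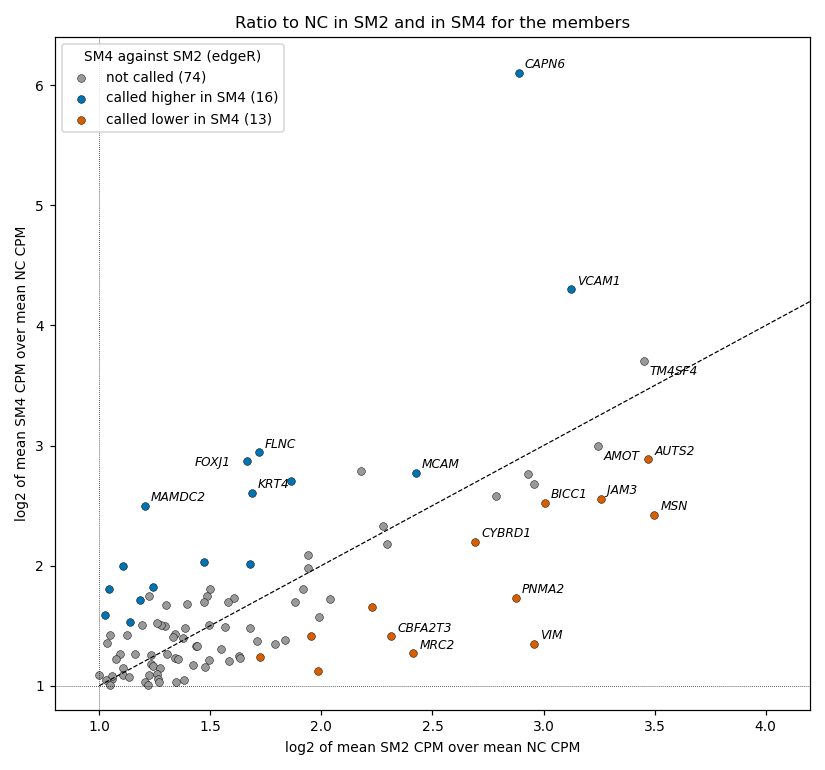
Ratio to NC in SM2 (horizontal) and SM4 (vertical) of the 103 members on log2 scales, coloured by the edgeR call of SM4 against SM2, with the line of equal ratios dashed and the 2-fold limits dotted. The 16 members called higher in SM4 lie above the line, with CAPN6 farthest, and the 13 called lower lie below it, with VIM farthest.

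CAPN6 had the largest difference, with a log2 fold change of 3.18 ± 0.28 (SE from edgeR, n = 3 per group). This gene reached the minimum level only through SM4, so its value is a description. FOXJ1 was higher by 1.20 ± 0.09, FLNC by 1.22 ± 0.11 and VCAM1 by 1.17 ± 0.13 on the same scale. MAMDC2, a protein with MAM domains, was higher by 1.29 ± 0.26. In each of these 5 genes all 3 SM4 libraries lay above all 3 SM2 libraries. With those lower in SM4, 9 members were called at 2-fold or more, where 0.788% of all tested genes were. The rule used the same libraries, so nothing is read from this count. MAMDC2 and PNMA2 likewise reached the minimum only through the group where they were higher. Smaller differences upward were called for KRT4 and KRT13, for the carboxypeptidase CPA4, for VGLL1 and for MCAM, the last at 0.34 ± 0.08.

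In the other direction, VIM differed by -1.61 ± 0.09 on the log2 scale (SE from edgeR). The difference was -1.15 ± 0.17 for MRC2, a collagen-uptake receptor, -1.15 ± 0.20 for PNMA2, a neuronal paraneoplastic antigen, -1.08 ± 0.11 for MSN and -0.91 ± 0.14 for CBFA2T3, a transcriptional corepressor. All SM4 libraries lay below all SM2 libraries in these 5 genes. JAM3, AUTS2, BICC1 and TUBB4A were also called lower.

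For 74 members no difference between SM4 and SM2 was called, with 95% intervals of a median of 0.36 to either side on the log2 scale. The intervals are not adjusted for the number of genes. Some of the 74 lie wholly above or below no difference, such as CACNG4 (0.03 to 0.61) and INHBB (-0.84 to -0.07). SPNS2 differed by 0.04 (95% interval -0.06 to 0.14) and SYT12 by -0.01 (-0.12 to 0.11). For TM4SF4 the interval was -0.06 to 0.55 and for AMOT -0.59 to 0.08, which leaves room for moderate differences at this depth.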

How the data were processed

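Values were deposited as raw gene counts in 9 libraries, which the authors had not normalized. The submitters' processing notes name fastp, HISAT2, Subread and featureCounts with GRCh38 (hg38). Versions, annotation and strand setting are not given in the sources used here, and labels and methods name different library kits and read layouts. Of 60649 identifiers, 60463 matched GENCODE release 44 (GRCh38), which gave symbols, coordinates, lengths and GC content. CPM values are counts over the library total, and intervals cover counting and replicate spread of these libraries only; reads carry no molecular identifiers.

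SM4 was compared with SM2 by quasi-likelihood F tests in edgeR 4.0.16 (R 4.3.3) after filterByExpr and TMM, with 9 libraries in one model with group as the only term and Benjamini-Hochberg adjustment over 19674 genes. Standard errors came from the fold change and the F statistic, and 95% intervals from the degrees of freedom of that test. The code was tested on simulated data. Alternatives were other scalings, DESeq2 1.42.0, level and fold limits, filters, a replicate block and leaving out each library. Removing the GC trend, leaving out overlapping members and applying the rule to SM4 and NC alone were added after seeing the data.

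The members and lists were chosen with earlier results of these data known, and roles, tissues, relatives with binding partners, and printed promoters were assigned after the members were seen. After that point, lists built from name prefixes were matched by pattern and limited to protein-coding genes, and the cytoskeleton list was shortened by removing prefixes that match unrelated names. Genes named with values are METTL3, the 12 members with the largest smaller ratio, the 5 with the highest CPM, the 6 on each side of the limit, the 5 called highest and lowest in SM4 against SM2, neighbours within 500 kb and list members, up to 6 per list. A few items that these rules cover are not reported here.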

Additional observations from a re-analysis of the deposited data

Results flagged for a closer look

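The following members were called at 2-fold or more between SM4 and SM2 by edgeR (log2 fold change, n = 3 per group). The rule for members used the same libraries, so the values are a description. CAPN6, MAMDC2 and PNMA2 also reached the minimum of 1 CPM only through the group where they were higher. Higher in SM4 were CAPN6 at 3.18, MAMDC2 at 1.29, FLNC at 1.22, FOXJ1 at 1.20 and VCAM1 at 1.17. Lower in SM4 were MSN at -1.08, PNMA2 at -1.15, MRC2 at -1.15 and VIM at -1.61. Of all tested genes, 0.788% were called at 2-fold or more in either direction. METTL3 was also higher in each SM4 library than in each SM2 library, and its part in the 9 differences was not tested.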

How the results depend on the processing

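The number of genes that met the rule was 62 at a mean of at least 2 CPM, 359 with no minimum level, 306 at 1.5 times NC, 29 at 3 times NC and 180 with SM4 and NC alone, against 103 in the report. Leaving out single libraries gave 96 to 114, and 78 members were kept in each of these 9 settings; CAPN6 was among the 25 lost in at least one. The number of neighbouring pairs was 5 at 250 kb and 18 at 1 Mb. In SM4 against SM2, 2518 genes were called in all, 1393 at an adjusted p below 0.01, and 1574 to 2748 when single libraries were left out, the lowest without SM4 replicate 1. Members called higher then numbered 11 to 18 and lower 10 to 16. With the replicate number as a block, 2815 genes were called, with 17 members higher and 13 lower. Correlations of deviations between libraries of one number lay between -0.05 and 0.05. Those between libraries of different numbers are not given, so whether the numbers pair the samples is not settled. The 10 members highest and lowest in this comparison kept their direction and their call in all 16 alternatives. Depth limits the low members most, since 54 lay below 1 CPM in NC.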

Other observations

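Close relatives or binding partners of 15 members were picked from general knowledge after the members were seen. The partners were TNFRSF10A and TNFRSF10B, receptors of TNFSF10, and ITGB1, an integrin subunit of a VCAM1 receptor. Of the 27 relatives and partners that reached 1 CPM, 2 (SPNS3 and HTRA3) were at least 1.5 times NC in both groups. The ratios ran from 0.737 to 2.28 in SM2 and from 0.826 to 1.95 in SM4, and both lowest values were those of TNFRSF10A. These ratios are descriptions, and the difference from the members follows in part from how the members were chosen. Of the moesin relatives, EZR had ratios to NC of 0.968 (SM2) and 0.976 (SM4) and RDX 0.893 and 1.05, where MSN had 11.3 and 5.37. In CPM per kb of transcript, EZR stood at 581 in SM2 and MSN at 6.08. Next to AMOT, the ratios were 0.946 (SM2) and 1.09 (SM4) for AMOTL1 and 1.15 (SM2) and 1.12 (SM4) for AMOTL2, where AMOT had 9.47 and 7.99. For the filamins, FLNA had 1.02 and 0.950, where FLNC had 3.29 and 7.70. Relatives of other members moved further, with SYNGR3 at 1.89 and 1.39, SPNS3 at 1.74 and 1.95 and HTRA3 at 2.28 and 1.61.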
